A study of Rattus norvegicus with 24 samples.

Results

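Globin and erythroid genes were followed as 4 gene names, Hba-a2, Hbb, LOC100134871 and Alas2, chosen by name from the gene tables of all 24 libraries. Hba-a2 is listed under 2 Ensembl identifiers, so the 4 names gave 5 rows of the 23950 in each table. The values are FPKM, fragments counted per length of transcript and relative to all mapped fragments of the library, so that levels can be compared between genes.

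The libraries came from the nucleus accumbens (NAc), a striatal reward region, of Sprague Dawley rat pups at postnatal day 14. Each of 6 groups held 4 libraries from separate litters, in generation F1 or F2 and in 1 of 3 treatment lines. In the in utero exposed (IUO) line, F0 females were gavaged with oxycodone (oxy) at 10 mg/kg/day for 5 days. The dose then rose by 0.5 mg/kg/day for 10 days to 15 mg/kg/day and was kept through mating, gestation and lactation. In the postnatally exposed (PNO) line, F0 dams received 15 mg/kg/day from parturition until weaning, so F1 pups met the drug through milk. The third line was the saline control (SAL). F2 pups were born to F1 females that were given no oxy themselves. Pups of both sexes were used, and the sources used here do not say whether the vessels were flushed before the brains were cut.

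Hemoglobin is a tetramer of alpha and beta chains, each of which carries a heme group that binds oxygen. Hba-a2 encodes an alpha chain, while Hbb and LOC100134871, named Hbbl1 in RefSeq, encode beta-type chains. Alas2 is the erythroid form of 5-aminolevulinate synthase, which starts heme synthesis in developing red cells, and its relative Alas1 does the same in other tissues. Globin transcripts are best known from erythroblasts and reticulocytes, and low levels have also been described in neurons and glia. In bulk tissue, fewer cells of a type and less RNA per cell cannot be told apart.

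The sequences before the transcription starts are shown because the 4 globin rows rose and fell together from library to library. RefSeq (GRCr8) held windows for Hba-a2, Hbb and LOC100134871 on the minus strand, and the 250 bases before each start are given 5′ to 3′. Capitals mark every match, on either strand, to 5 short letter strings. These were GATAA, the string of GATA factors, CACCC, bound by Klf1 and its relatives, CCAAT, the CCAAT box, the TATA box string TATAAA, and its variant CATAAA.
Hba-a2, chr10:15829139-15829388: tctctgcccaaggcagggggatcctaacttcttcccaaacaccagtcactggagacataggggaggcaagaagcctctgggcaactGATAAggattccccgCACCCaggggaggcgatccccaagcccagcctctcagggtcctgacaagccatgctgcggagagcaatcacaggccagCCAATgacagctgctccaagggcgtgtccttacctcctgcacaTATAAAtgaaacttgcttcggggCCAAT
Hbb, chr1:167663722-167663971: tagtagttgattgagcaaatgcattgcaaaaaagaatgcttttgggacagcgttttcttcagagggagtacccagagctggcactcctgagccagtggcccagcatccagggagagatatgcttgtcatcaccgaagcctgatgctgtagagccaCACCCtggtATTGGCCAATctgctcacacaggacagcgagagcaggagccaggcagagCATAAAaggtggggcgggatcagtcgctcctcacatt
LOC100134871, chr1:167650236-167650485: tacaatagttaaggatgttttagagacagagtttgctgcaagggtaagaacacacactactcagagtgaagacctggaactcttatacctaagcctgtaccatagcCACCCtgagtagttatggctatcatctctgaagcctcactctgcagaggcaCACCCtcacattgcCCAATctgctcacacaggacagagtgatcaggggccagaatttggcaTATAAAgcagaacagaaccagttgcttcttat
CCAAT stood in all 3, upstream of the TATAAA or CATAAA string, at 71 bases before the start in Hba-a2, 81 in Hbb and 79 in LOC100134871. Hba-a2 held another copy 5 bases before the start. CACCC also stood in all 3. TATAAA began 28 bases before the start in Hba-a2 and 32 in LOC100134871, while Hbb had CATAAA at 37 bases and no TATAAA. The string GATAA was found in the Hba-a2 window, 164 bases before the start. In Hbb the CCAAT on the sense strand directly followed another on the opposite strand, and no other matches overlapped or adjoined. Of the 33469 windows in the table, which also include 50 bases after the start, 26.5% held GATAA on at least 1 strand. The share was 54.9% for CACCC, 37.5% for CCAAT, 14.2% for TATAAA and 12.7% for CATAAA. These matches are strings of letters and not measured binding sites.

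Related copies may limit what each row can say, although only the windows before the starts were compared and not the transcripts. RefSeq lists Hba-a1 beside Hba-a2, and their 250-base windows differed at 9 positions. After alignment, the window of LOC100134871 was identical to that of the further beta gene LOC689064 at 94.4% of bases and to that of Hbb at 68.0%. Which of the 2 rows named Hba-a2 belongs to which RefSeq gene could not be settled, so they are called Hba-a2 ENSRNOG00000029886 and Hba-a2 ENSRNOG00000047321. Reads shared by the alpha copies, or by Hbb, LOC100134871 and LOC689064, may have been divided among rows by the authors' transcript assembly. The window RefSeq gives for Alas2 starts inside the gene and is not shown.

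Alpha globin was the most abundant of the members in every library. Hba-a2 ENSRNOG00000029886 was listed between 9.18 and 278 FPKM, with a median of 21.3 over the 24 libraries. Hba-a2 ENSRNOG00000047321 ran from 2.97 to 151 FPKM, LOC100134871 from 1.51 to 72.2 and Hbb from 0 to 41.2. Ranked by FPKM in its own library, Hba-a2 ENSRNOG00000029886 was the 253rd of 23950 genes in the third F1 PNO library and the 6849th in the first F1 SAL library. The sum of the 4 globin rows thus spanned 37.3-fold, from 14.5 to 543 FPKM. It made up between 0.00237% and 0.0918% of all FPKM in a library.

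Levels of Hba-a2 ENSRNOG00000029886 were lowest in the saline groups. The F1 SAL libraries held 9.18, 13.4, 12.1 and 56.0 FPKM, and the F2 SAL libraries 21.0, 10.7, 9.65 and 11.2. In F1 PNO the values were 20.1, 15.8, 278 and 21.5 FPKM, and in F2 PNO 19.8, 129, 24.6 and 31.6. In each generation 3 of the 4 PNO libraries thus lay close together, with 1 far above them. The F1 IUO libraries held 14.8, 248, 76.1 and 15.98 FPKM, and the F2 IUO libraries 58.7, 21.7, 56.8 and 80.0. F2 IUO was the one exposed group that lay wholly above its own saline group in this row, as 2.37% of all genes tested did in that comparison.

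Hba-a2 ENSRNOG00000047321 followed a similar order of libraries at a lower level. Its values were 2.97, 4.95, 6.28 and 27.3 FPKM in F1 SAL, and 12.4, 6.65, 3.53 and 4.74 in F2 SAL. In PNO they were 13.6, 9.77, 151 and 10.1 FPKM in F1 and 8.68, 55.2, 13.5 and 11.3 in F2. The IUO libraries held 13.6, 136, 36.3 and 9.70 FPKM in F1 and 28.3, 5.61, 25.6 and 35.02 in F2. Each group overlapped with its saline group in this row. The level of this row relative to the other Hba-a2 row ranged from 0.259 to 0.919, with a median of 0.479.

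Hbb, the lower of the beta rows, was listed at 0.76, 0.80, 0.63 and 5.09 FPKM in F1 SAL and at 2.71, 2.65, 0 and 0.81 in F2 SAL. The PNO libraries held 1.93, 1.37, 41.2 and 2.58 FPKM in F1 and 2.04, 10.6, 3.06 and 4.34 in F2. The IUO libraries held 2.35, 25.9, 6.47 and 2.24 FPKM in F1 and 5.53, 0, 4.69 and 5.38 in F2. The 0 of the second F2 IUO library stood beside 21.7 FPKM of Hba-a2 ENSRNOG00000029886 and 4.71 of LOC100134871 in that library. A 0 in these tables may be a failed estimate, since Cldn5, a gene of brain endothelium, was listed at 0 in 22 of the 24 libraries.

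LOC100134871, the more abundant beta row, held 1.63, 1.51, 2.52 and 15.2 FPKM in F1 SAL and 5.61, 5.63, 2.38 and 3.39 in F2 SAL. The PNO values were 4.79, 6.78, 72.2 and 6.79 FPKM in F1 and 5.78, 38.7, 10.4 and 6.25 in F2. The IUO values were 6.54, 66.3, 18.6 and 5.33 FPKM in F1 and 10.8, 4.71, 17.2 and 22.5 in F2. All 4 F2 PNO libraries lay above the F2 SAL libraries, the lowest at 5.78 against the highest at 5.63 FPKM, as 2.65% of all genes tested did. All 16 libraries of the IUO and PNO lines exceeded the median of the 8 saline libraries, 2.96 FPKM, and 6 exceeded every saline library. In Hba-a2 ENSRNOG00000029886, Hba-a2 ENSRNOG00000047321 and Hbb, 16, 15 and 15 exceeded the saline median of the row. These counts pool lines and generations, and the share of all genes with such counts was not determined. The ratio of LOC100134871 to Hbb ranged from 1.44 to 4.95 over the 22 libraries in which Hbb was above 0.

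Alas2 was near 0 throughout. It was listed at 0.02, 0, 0.03 and 0.06 FPKM in F1 SAL, at 0.03, 0, 0.19 and 0 in F1 PNO, and at 0, 0.35, 0.22 and 0.04 in F1 IUO. In F2 it held 0.07, 0.08, 0 and 0.06 FPKM in SAL, 0.04, 0.33, 0 and 0.06 in PNO, and 0.08, 0, 0.05 and 0 in IUO. It was at 0 in 8 of 24 libraries and never reached 0.1 FPKM in 4 of the 8 libraries of a comparison, the level required for testing across genes. The tables round FPKM to 0.01, so most of its values rest on a few steps of rounding. Alas1, the form used outside red cells, had values from 14.1 to 25.0 FPKM.

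**Figure D1:**
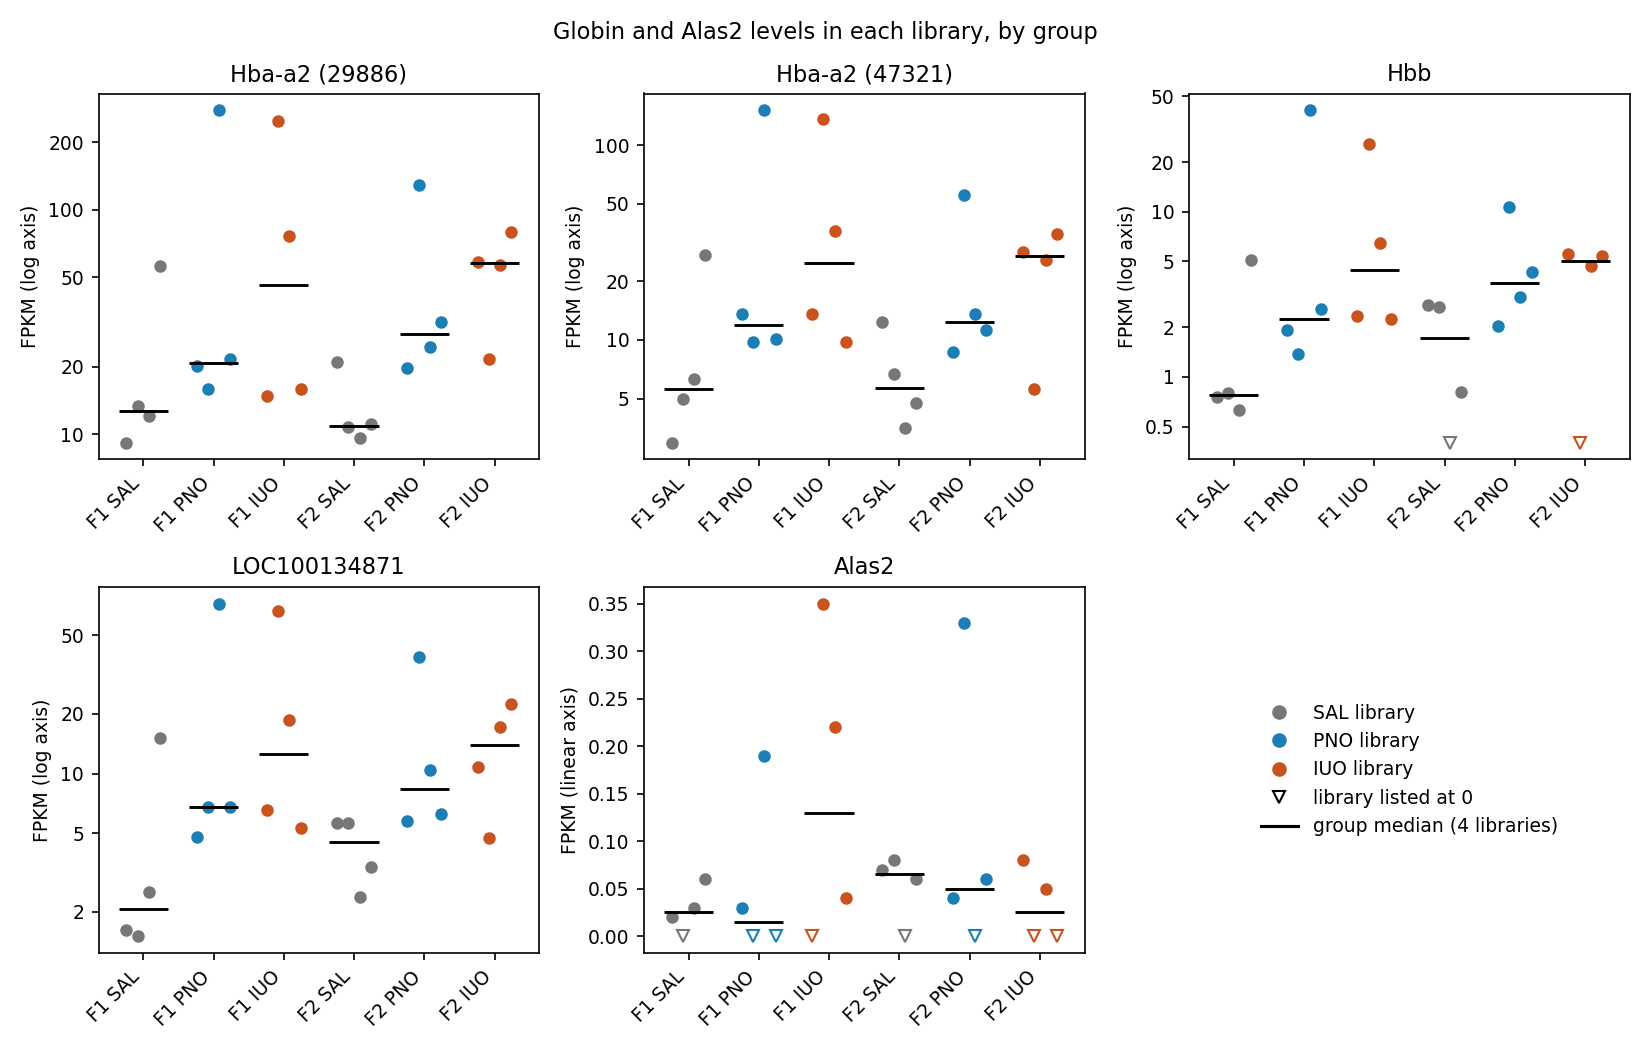
FPKM of the 5 rows in each library by group, on a log axis for the globin rows and a linear axis for Alas2. Points are libraries, black bars the median of 4 libraries, open triangles libraries listed at 0, and the number beside Hba-a2 is the end of its Ensembl identifier. The saline groups have the lowest medians in all 4 globin rows, and 1 library stands well above the other 3 in F1 SAL, F1 PNO, F1 IUO and F2 PNO.

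The globin rows shared their high libraries. In all 4 rows the highest 3 values came from the third F1 PNO library, the second F1 IUO library and the second F2 PNO library, in that order. Hba-a2 ENSRNOG00000029886 was there at 13.1, 11.7 and 6.06 times its median over all libraries, and LOC100134871 at 11.3, 10.4 and 6.05 times. At the other end, the 6 lowest globin sums, 14.5 to 25.7 FPKM, all belonged to saline libraries. The next in order was the second F2 IUO library at 32.0 FPKM. The remaining saline libraries were the first of F2 in place 14 from the lowest, at 41.7 FPKM, and the fourth of F1 in place 18, at 104 FPKM.

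Across the 24 libraries, log2(FPKM + 0.1) of Hba-a2 ENSRNOG00000029886 was set against each of the other rows, 4 relations in all. Pearson's r was 0.967 with Hba-a2 ENSRNOG00000047321, 0.949 with LOC100134871, 0.802 with Hbb and 0.734 with Alas2. Spearman's rho was 0.902, 0.883, 0.863 and 0.481 in the same order. The permutation p was 1e-05 for r and for rho in each globin relation, the smallest that 100000 resamples can give. For Alas2 the permutation p was 0.00016 for r and 0.0188 for rho. Without the second F1 IUO and the third F1 PNO library, the 2 farthest from the median, r was 0.939, 0.911, 0.689 and 0.583. After centring on group means, r was 0.971, 0.952, 0.797 and 0.853. For Alas2, r was 0.901 within the 12 F1 libraries and 0.441 within the 12 F2 libraries, and for Hbb 0.973 and 0.667. Rows that share reads are not independent measurements.

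Alpha over beta, the 2 Hba-a2 rows divided by Hbb plus LOC100134871, changed far less than either sum. It lay between 2.10 and 7.92 with a median of 4.03, while the alpha sum spanned 35.3-fold and the beta sum 49.1-fold. The ratio was 3.79 in the library with the most globin and 5.08 in the one with the least. Its mean was 5.73 ± 1.62 (SD, n = 4) in F1 SAL and between 3.56 and 4.75 in the other 5 groups.

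**Figure D2:**
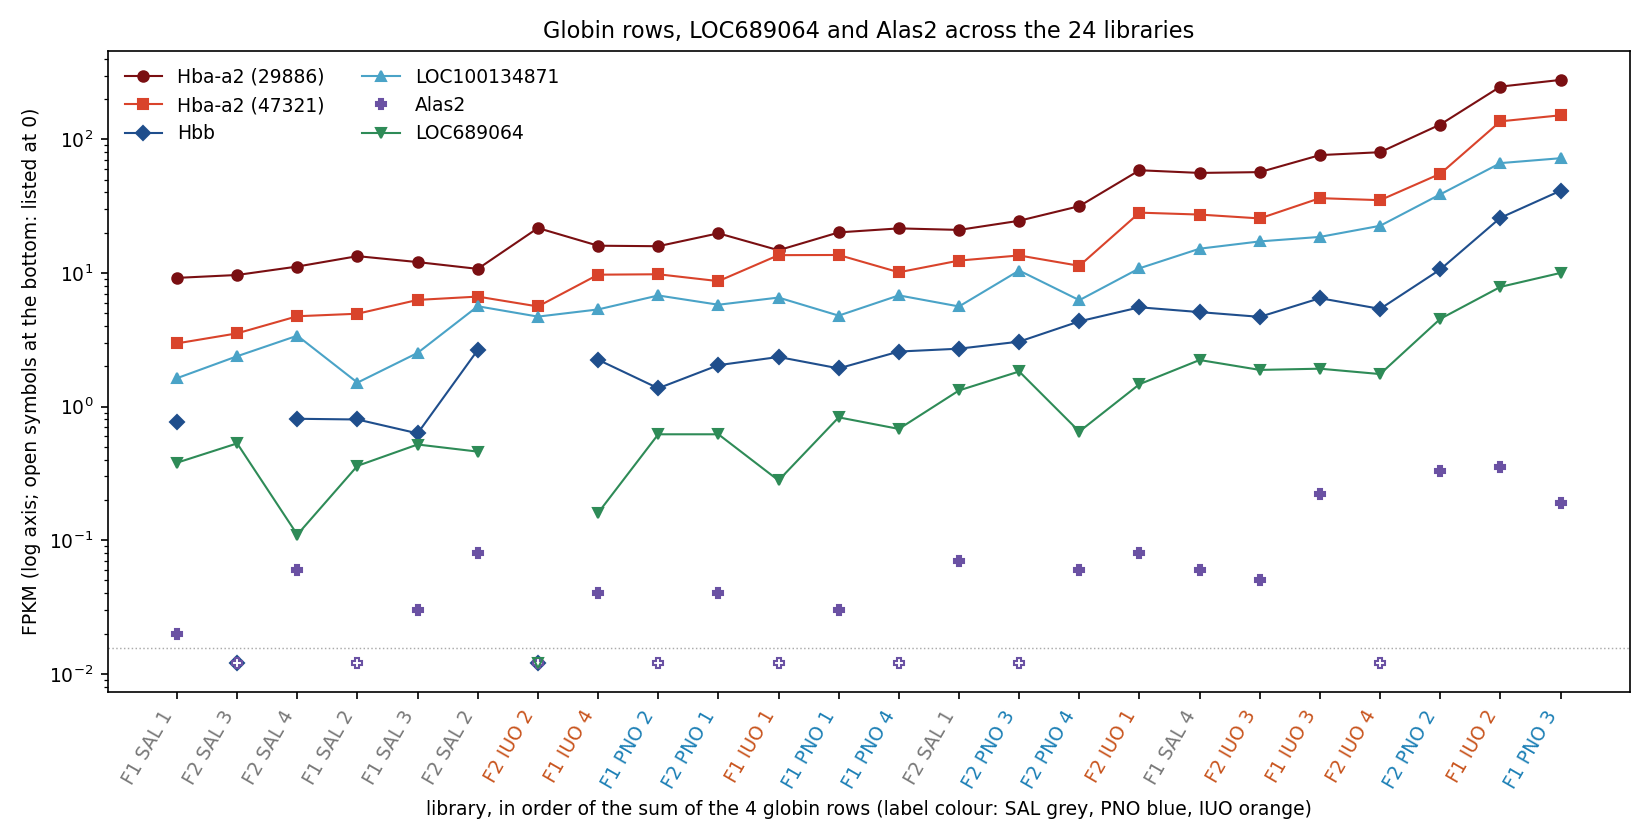
FPKM on a log axis of the 4 globin rows, the further beta gene LOC689064 and Alas2, with the 24 libraries in order of the sum of the 4 globin rows. Open symbols below the dotted line are libraries listed at 0. The globin rows climb together, the 6 libraries at the left are all saline, and Alas2 has its 4 highest values, 0.19 to 0.35 FPKM, among the 5 libraries with the most globin.

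Leaving the members aside, 17083 genes were compared with Hba-a2 ENSRNOG00000029886 over the 24 libraries by Pearson's r on log2(FPKM + 0.1). The one whose pattern was most like it was LOC689064, annotated as a beta globin, with r of 0.851. Its highest values, 10.0, 7.86 and 4.53 FPKM, fell in the same 3 libraries as those of the members. Hba-a3, annotated as an alpha globin, was in place 5 with r of 0.585, and its highest values were 5.89, 3.03 and 1.41 FPKM in those libraries. Between them came Alox15, which encodes a lipoxygenase, at 0.624, Azi2 at 0.602 and Cbfb at 0.591. Mtfp1, Ptgs2, Hapln1 and the rows named AABR07012030.1 and AABR07004397.1 completed the first 10, with r of 0.566 or more.

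The comparisons with saline asked whether pups of the exposed lines differed from controls of their own generation. All genes were fitted with limma on log2(FPKM + 0.1), and fold changes are on that scale. A row was called where it had an unadjusted p under 0.05 and group means of FPKM that were 2-fold or more apart, which is named the 2-fold rule here. With a limit of 1.5-fold in its place the same numbers of globin rows were called in the 4 comparisons. All 16 fold changes of the 4 globin rows in the 4 comparisons with saline were positive, and 9 of them were called. The IUO and PNO comparisons of a generation share their saline libraries. The 4 rows also rose and fell together over the libraries and may share reads. The 16 fold changes, and the counts of rows called in each comparison, are therefore not independent. The share of all genes with positive fold changes in all 4 comparisons was not determined. At an adjusted p under 0.05 (limma, Benjamini-Hochberg over all genes tested) no row was called in any comparison. In F1 IUO against F1 PNO 0.133% of genes passed that limit, in F2 SAL against F1 SAL 0.0343%, in F2 PNO against F1 PNO 0.0288%, in F2 PNO against F2 SAL 0.00576% and in the other 5 comparisons 0%. The exact permutation test of 4 against 4 libraries cannot go below p = 0.029.

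In F1 IUO against F1 SAL, 3 of 4 globin rows were higher by the 2-fold rule, against 0.541% of all 17380 genes tested. Hba-a2 ENSRNOG00000047321 rose by 1.98 ± 0.87 (log2, SE; limma p = 0.0464, exact permutation p = 0.143), from a mean of 10.4 ± 11.4 to 48.9 ± 59.4 FPKM (SD, n = 4). Hbb, at 2.10 ± 0.85, had limma p = 0.034 and exact permutation p = 0.0857. LOC100134871, at 2.16 ± 0.90, had limma p = 0.0378 and exact permutation p = 0.114. Hba-a2 ENSRNOG00000029886 had a fold change of 1.43 ± 0.90 with limma p = 0.145 and exact permutation p = 0.171. All 4 adjusted p-values were 0.999 (limma), and no row separated the groups, against 1.17% of genes that lay wholly higher in F1 IUO. The count fell to 0 without the second or the third IUO library, or without the first, the second or the third SAL library. With all 24 libraries in a single fit 2 rows were called. Without the second IUO library the fold changes were 0.62, 1.23, 1.36 and 1.43 for Hba-a2 ENSRNOG00000029886, Hba-a2 ENSRNOG00000047321, Hbb and LOC100134871.

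In F1 PNO against F1 SAL no globin row was called by the 2-fold rule or had an unadjusted p under 0.05 in limma, against 0.84% of genes called higher and 13.9% with such a p in either direction. No row separated the groups, against 3.47% of genes that lay wholly higher. Fold changes ran from 1.13 to 1.81 (log2) with standard errors of 0.91 to 1.04, beside 1.43 to 2.16 in F1 IUO, and exact permutation p-values from 0.171 to 0.429. Without the third PNO library they were 0.16 for Hba-a2 ENSRNOG00000029886, 0.63 for Hba-a2 ENSRNOG00000047321, 0.61 for Hbb and 0.92 for LOC100134871. Without the fourth F1 SAL library 3 rows were called, Hba-a2 ENSRNOG00000047321 at 2.21, Hbb at 2.37 and LOC100134871 at 2.55.

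In F2 IUO against F2 SAL, 3 of 4 globin rows were higher by the 2-fold rule, against 0.503% of genes. Hba-a2 ENSRNOG00000029886 rose by 1.97 ± 0.39 (limma p = 0.000568, adjusted p = 0.251), from 13.1 ± 5.27 to 54.3 ± 24.2 FPKM (SD, n = 4), with an exact permutation p of 0.029. Its SE was the smallest of any globin row in the 4 comparisons with saline. Hba-a2 ENSRNOG00000047321 rose by 1.66 ± 0.57 (limma p = 0.0168, adjusted p = 0.543, exact permutation p = 0.0857), from 6.82 ± 3.92 to 23.6 ± 12.6 FPKM (SD, n = 4). LOC100134871 rose by 1.55 ± 0.47 (limma p = 0.00853, adjusted p = 0.495, exact permutation p = 0.0857), from 4.25 ± 1.63 to 13.8 ± 7.73 FPKM. Hbb, with 1 library at 0 in each group, had a fold change of 1.10 ± 1.46 (limma p = 0.471, exact permutation p = 0.486). At least 3 rows were called whichever library was left out, and 4 without the second IUO library, where Hbb was at 0. With all 24 libraries in a single fit, whose spread is shared by all groups, 1 row was called, Hba-a2 ENSRNOG00000029886.

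In F2 PNO against F2 SAL, 3 of 4 globin rows were higher by the 2-fold rule, against 0.864% of genes. Hba-a2 ENSRNOG00000029886 rose by 1.58 ± 0.54 (limma p = 0.016, adjusted p = 0.395, exact permutation p = 0.0571), from 13.1 ± 5.27 to 51.2 ± 52.0 FPKM (SD, n = 4). Hba-a2 ENSRNOG00000047321 rose by 1.42 ± 0.58 (limma p = 0.0363, exact permutation p = 0.0857). LOC100134871, whose groups did not overlap, rose by 1.44 ± 0.57 (limma p = 0.0329, exact permutation p = 0.029). Hbb had a fold change of 2.21 ± 1.01 with limma p = 0.0562 and exact permutation p = 0.114. Without the second PNO library no row was called, the fold changes of the 3 called rows being then 0.99, 0.84 and 0.84. Without the third PNO, the third SAL or the fourth SAL library, 1 row was called. With all 24 libraries in a single fit no row was called.

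**Figure D3:**
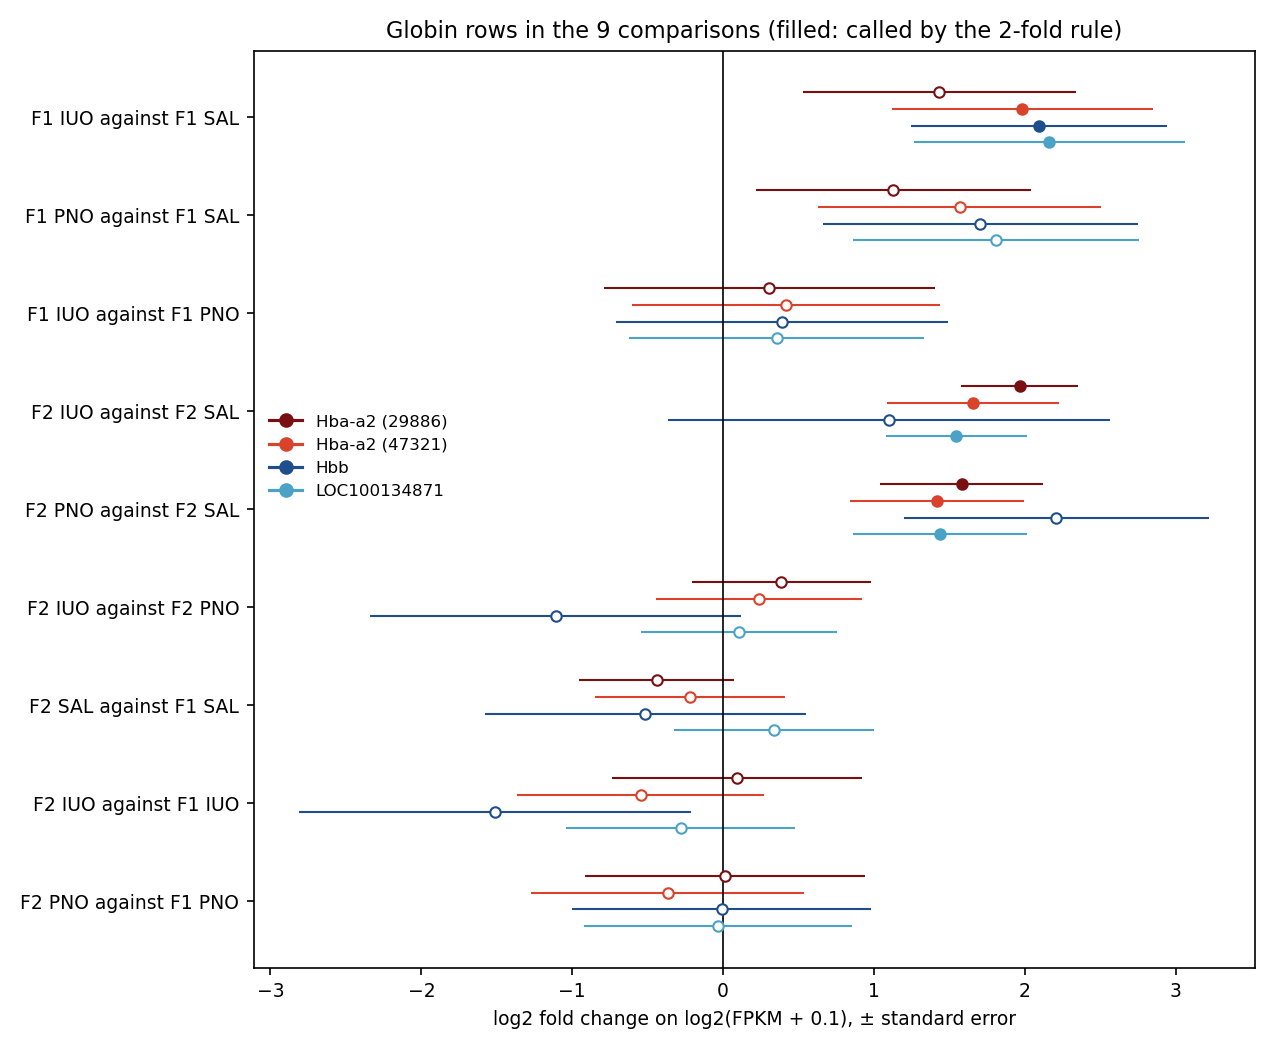
Log2 fold change of the 4 globin rows in the 9 comparisons, on log2(FPKM + 0.1), with bars of 1 standard error from limma. Filled points were called by the 2-fold rule. All points of the 4 comparisons with saline lie above 0, and those between IUO and PNO and between generations lie on both sides of 0 or near it.

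Between the exposed lines and between generations, no globin row was called by the 2-fold rule or had an unadjusted p under 0.05 in limma. In F1 IUO against F1 PNO the fold changes ran from 0.31 to 0.42, where 2.95% of genes were called in either direction and 16.5% had an unadjusted p under 0.05. In F2 IUO against F2 PNO they ran from -1.11 for Hbb to 0.38, against 1.8% and 7.07% of genes. F2 SAL against F1 SAL gave -0.52 to 0.34 (1.45% of genes called, 8.48% with such a p), F2 IUO against F1 IUO -1.51 to 0.09 (3.32% and 15%) and F2 PNO against F1 PNO -0.37 to 0.01 (2.01% and 4.76%). The standard errors were 0.51 or more in all of these, so that a 2-fold difference would be under 2 standard errors.

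Whether the differences from saline themselves differed between F1 and F2 was tested as an interaction in limma. For IUO against SAL the F2 minus F1 difference was 0.53 ± 1.08 for Hba-a2 ENSRNOG00000029886, -0.33 ± 1.14 for Hba-a2 ENSRNOG00000047321 and -0.62 ± 1.11 for LOC100134871. Hbb stood at -0.997 with the widest error, 1.85. No row had an unadjusted p under 0.05, where 5.17% of genes did. For PNO against SAL the 4 values lay between -0.37 and 0.51, and again no row had an unadjusted p under 0.05, against 3.9% of genes. For IUO against PNO no row did either, against 5.87% of genes.

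By the mean of log2(FPKM + 0.1), both saline groups took the last 2 places in each of the 4 globin rows. Hba-a2 ENSRNOG00000029886 had geometric means of 49.0 FPKM in F2 IUO, 46.0 in F1 IUO, 37.5 in F2 PNO, 37.2 in F1 PNO, 16.98 in F1 SAL and 12.5 in F2 SAL. For LOC100134871 they were 14.4 FPKM in F1 IUO, 11.9 in F2 IUO, 11.3 in F1 PNO, 11.01 in F2 PNO, 4.00 in F2 SAL and 3.15 in F1 SAL. Of the 20 pairs of neighbouring groups in these orders, 1 had an exact permutation p under 0.05, namely LOC100134871 in F2 PNO above F2 SAL. Alas2 did not follow this order, with F2 SAL in place 3 and F1 SAL last.

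The other genes of red cells and heme were counted from lists. The 14 genes of heme synthesis other than Alas2, from Alas1 and Alad to ferrochelatase (Fech), were all tested in each of the 9 comparisons and none was called. Their medians lay between -0.12 and 0.13, beside medians over all genes tested within 0.1 of 0 and a median of 1.60 for the globin rows in F2 IUO against F2 SAL. Of 19 genes of the red cell membrane and metabolism, 16 were in the tables and 11 were tested. None was called against saline, and Sptb, which encodes beta spectrin, fell in F2 IUO against F1 IUO. Slc4a1, the anion exchanger band 3 that defines the red cell membrane, was listed at 0 in 13 of 24 libraries. Its highest value, 0.17 FPKM, was in the third F1 PNO library, the one with the most globin. The summed FPKM of the list ranked 8, 17 and 11 of 24 in the third F1 PNO, the second F2 PNO and the second F1 IUO library. Its members included Dmtn, which encodes dematin of the membrane skeleton, at 50.3 to 76.6 FPKM and Bpgm, which encodes bisphosphoglycerate mutase, at 47.6 to 65.6 FPKM.

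Among 15 erythroid regulators, 11 or 12 were tested, and 2 were called against saline. In those comparisons 1.61% to 2.18% of all genes were called in either direction. Klf1, a transcription factor that drives beta globin in red cell precursors, was listed at 0.47, 0.34, 0.27 and 0.46 FPKM in F1 SAL and at 0.43, 0.69, 0.92 and 1.11 in F1 IUO. The groups overlapped through the first IUO library, and Klf1 rose by 0.83 ± 0.36 (log2; limma, adjusted p = 0.999). Epor, the erythropoietin receptor, was listed at 0.96, 0.90, 0.84 and 0.80 FPKM in F2 SAL and at 0.24, 0.31, 0.73 and 0.41 in F2 IUO. All IUO values lay below the saline values, as 2.74% of genes did, and Epor fell by 0.98 on the log2 scale (limma, adjusted p = 0.559). It also fell by 1.63 in F2 IUO against F1 IUO (limma, adjusted p = 0.226). Ahsp, a chaperone that binds free alpha globin, peaked in other libraries than the globins did. It was listed at 5.26 FPKM in the second F2 IUO, 5.10 in the second F2 SAL and 5.04 in the first F2 IUO library, and at 1.86 or less in the 3 libraries with the most globin. Trim58 and Hemgn, of the same list, had their highest values in globin-rich libraries, but near 0. Trim58 was at 0.33 FPKM in the third F1 PNO library and at 0 in 17 libraries. Hemgn was at 0.16 FPKM in the second F1 IUO library and at 0 in 12.

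Genes that bind and clear hemoglobin and heme, 12 in the list, gave 1 call against saline, beside 1.61% to 2.18% of all genes in either direction. Cd163, the macrophage receptor for hemoglobin bound to haptoglobin, fell by 1.60 on the log2 scale in F2 IUO against F2 SAL (limma, adjusted p = 0.449). Its means there were low, 0.065 FPKM in F2 IUO and 0.388 in F2 SAL. Alb, serum albumin, rose by 1.48 in F2 IUO against F1 IUO (limma, adjusted p = 0.278). None of the 11 hypoxia-response genes tested, with Vegfa and Adm among them, was called against saline, and Car9, a carbonic anhydrase, rose by 1.41 in F2 PNO against F1 PNO (limma, adjusted p = 0.917). Of the other globins of brain and muscle, Cygb and Ngb were tested. Mb, which encodes myoglobin, was not, being listed at 0 in 19 libraries and at 0.14 FPKM at most. Cygb, which encodes cytoglobin, ran from 14.3 to 29.6 FPKM and Ngb, neuroglobin, from 1.56 to 4.84, and neither was called in any comparison.

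The summed markers of other blood cells and of vessels were not at their highest in the 3 libraries with the most globin. Of single genes, Gp6, Slco1a4, Abcg2 and Rgs5 had their highest value in 1 of those libraries, and the other listed genes elsewhere. The summed FPKM of 9 platelet genes lay between 2.81 and 9.27, and ranked 7, 12 and 18 of 24 in the 3 libraries with the most globin. Pf4 and Gp1bb, with means of 2.59 and 1.97 FPKM, made up most of the platelet sum, so it cannot show platelet genes near 0. The sum of 11 leukocyte genes was at most 2.69 FPKM and ranked 18, 12 and 22 in those 3 libraries. Only 1 to 3 of these leukocyte genes were tested in a comparison, and those called were near 0. Against saline 2 were called, both in F2 IUO, where 2.18% of all genes were called in either direction. In F2 IUO against F2 PNO 1 was called, beside 1.8% of genes. S100a8, a neutrophil calcium-binding protein, rose by 2.09 in F2 IUO against F2 SAL (limma, adjusted p = 0.567), from a mean of 0.0425 to 0.72 FPKM. Camp, an antimicrobial peptide of neutrophils, fell by 2.12 there (limma, adjusted p = 0.559), from 0.665 to 0.035 FPKM. In F2 IUO against F2 PNO, which had a mean of 0.598 FPKM, Camp fell by 2.33 (limma, adjusted p = 0.425). The part of leukocytes in the globin differences was not tested. The sum of 14 endothelial and mural genes, from 85.7 to 159 FPKM, ranked 9, 17 and 4, and Pdgfrb, the pericyte receptor for platelet-derived growth factor, fell by 1.28 in F2 IUO against F1 IUO (limma, adjusted p = 0.221). Each set of ranks is in the order of the third F1 PNO, the second F2 PNO and the second F1 IUO library. Of the platelet and leukocyte markers, Ppbp was listed at 0 in 23 libraries, S100a8 and S100a9 in 13 each and Cd3g in 23.

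**Figure D4:**
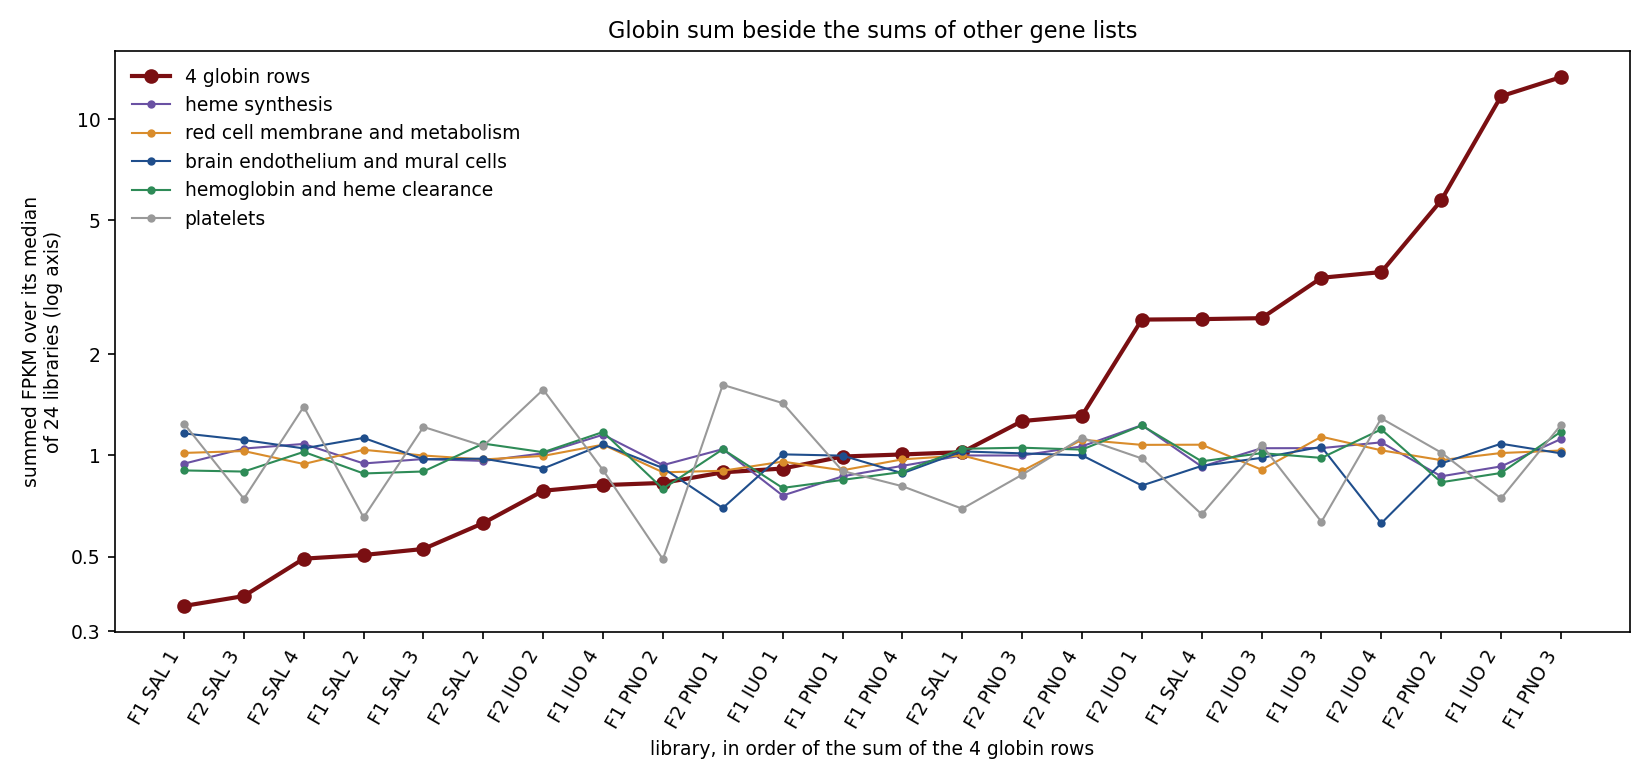
Summed FPKM of the 4 globin rows and of 5 other gene lists, each divided by its own median over the 24 libraries, on a log axis. Libraries are in order of the globin sum. The globin line runs over 37.3-fold, while the heme synthesis sum stays between 133 and 216 FPKM and the red cell membrane sum between 171 and 218 FPKM. In the red cell sum Dmtn and Bpgm had means of 62.4 and 54.1 FPKM and Slc4a1 0.019, so that sum cannot show Slc4a1. The heme synthesis sum includes Alas1, the form used outside red cells, with a mean of 19.7 FPKM.

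Markers of regions beside the NAc differed between libraries. All 10 striatal markers were present in every library, with sums of 433 to 1393 FPKM. Ttr, the leading transcript of choroid plexus, was at 973 to 12103 FPKM in 6 libraries and at 245 or less in the other 18. The 6 were the third and the fourth of F1 IUO, the first of F2 IUO, the third of F1 PNO, the fourth of F2 PNO and the first of F1 SAL. The list of 10 choroid plexus genes ranged from 5.18 to 5228 FPKM in F1 SAL, from 11.8 to 3828 in F1 PNO, from 8.87 to 8191 in F1 IUO, from 5.47 to 83.2 in F2 SAL, from 12.7 to 6843 in F2 PNO and from 5.38 to 12287 in F2 IUO. Its part in the globin differences was not tested. The globin sums of the 6 libraries, in the order given, were 137, 33.3, 103, 543, 53.5 and 14.5 FPKM, and so included both the highest and the lowest of the 24. In a fit without the 6 Ttr-rich libraries, which was chosen after seeing the data, 3 globin rows were called in F2 IUO and in F2 PNO against F2 SAL. In F1 IUO against F1 SAL no row was called with fewer libraries, the fold changes being 1.54, 2.17, 2.41 and 2.39 for Hba-a2 ENSRNOG00000029886, Hba-a2 ENSRNOG00000047321, Hbb and LOC100134871, beside 1.43, 1.98, 2.10 and 2.16 with all libraries. In F1 PNO against F1 SAL, where no row was called with all libraries, they were -0.13, 0.22, 0.41 and 0.62, beside 1.13, 1.57, 1.70 and 1.81.

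Of 9 hypothalamic genes tested, Pmch, Hcrt, Oxt and Avp, which encode neuropeptides, were called higher in F1 IUO against F1 SAL. Pmch was also called higher in F2 PNO against F2 SAL, and Otp, Oxt and Avp were called lower in F1 PNO against F1 SAL. Between lines and generations, Pmch, Otp, Trh, Hcrt, Oxt and Avp were called higher in F1 IUO against F1 PNO, Agrp in F2 IUO against F2 PNO, and Pmch in F2 PNO against F1 PNO. Of 8 thalamic genes, Lef1, Slc17a6, Prkcd, Gbx2 and Tcf7l2 were called higher in F1 PNO against F1 SAL. Lef1, Slc17a6, Gbx2 and Tcf7l2 were called lower in F1 IUO against F1 PNO, Rora in F2 IUO against F1 IUO, and Gbx2 in F2 PNO against F1 PNO. Of all genes tested, 1.61% were called in either direction in F1 IUO, 1.86% in F1 PNO and 2.15% in F2 PNO, each against its saline group. The part of these regions in the globin differences was not tested.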

How the data were processed

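RNA-seq of total NAc RNA was available for 24 libraries, 4 in each of 6 groups, and groups and replicate numbers were taken from the submitters' labels. The deposited values are FPKM per gene, which the authors made from aligned reads; their processing notes name HISAT2, StringTie, SAMtools and edgeR without versions, and the genome build is not given in the sources used here. Read counts were not analysed here, so the depth behind each value is unknown and no counting interval is given. FPKM summed to 535866 to 766781 per library, and 4782 to 7532 of 23950 genes were listed at 0. StringTie may divide reads among similar genes, which could affect the alpha and beta globin rows. Their transcripts were not compared.

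For each comparison of 2 groups, genes that reached 0.1 FPKM in 4 of its 8 libraries were tested with limma 3.58.1 (R 4.3.3; lmFit, eBayes with trend) on log2(FPKM + 0.1), which understates changes of low genes. Calls used a 2-fold rule, an unadjusted p under 0.05 with group means of FPKM at least 2-fold apart. The study's methods set a lower limit, 1.5-fold, for candidates taken to RT-PCR, and that limit was an alternative. Benjamini-Hochberg values over all genes are given beside the calls. Exact permutation tests (70 assignments) and the permutation tests of correlations (100000 resamples) were two-sided. Interactions of generation with line used the 16 libraries of both arms. The fit was tested on simulated data. The members and gene lists were chosen with earlier results of these data known. Named genes were all member rows, the listed genes called or on which a result turned, and the 10 genes with the highest r. Alternatives were a pseudocount of 1, other filters, a single fit of all 24 libraries, upper-quartile rescaling, a replicate block, the 1.5-fold limit, leaving out each library, and leaving out the 6 libraries with Ttr of at least 900 FPKM, the last chosen after seeing the data. Promoter sequences are from RefSeq (GRCr8). The build of the files is not known, so no other coordinates are given. A gene of the red cell list is not reported here.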

Additional observations from a re-analysis of the deposited data

Results flagged for a closer look

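Within groups of 4 libraries, 14 of 30 row and group pairs had a library whose gap to the nearest other, divided by the range of the group, passed Dixon's limit of 0.83. For normally spread values about 1.5 of 30 would pass. The limit was applied to FPKM without logs, which were skewed towards high values, so that number is not the chance rate here. The rows also share libraries and possibly reads, so the 14 are not independent. They came from 5 libraries.

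The third F1 PNO library was far above its group in all 5 rows, with gap ratios of 0.978 for Hba-a2 ENSRNOG00000029886, 0.973 for Hba-a2 ENSRNOG00000047321, 0.970 for Hbb, 0.970 for LOC100134871 and 0.842 for Alas2. The fourth F1 SAL library was above its group in all 4 globin rows, at 0.911, 0.864, 0.962 and 0.926 in the same order. The second F2 PNO library was above its group in both Hba-a2 rows, at 0.892 and 0.896, and in LOC100134871, at 0.859. The first F2 SAL library was above its group in Hba-a2 ENSRNOG00000029886, at 0.867. The second F2 IUO library was below its group in Hbb, where it was listed at 0, at 0.848. The second F1 IUO library, although it held 248 FPKM of Hba-a2 ENSRNOG00000029886, did not pass the limit, since the third stood between it and the rest at 76.1 FPKM.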

How the results depend on the processing

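The 9 globin fold changes called by the 2-fold rule kept their direction in all 144 refits and lost the call in 39. The 27 not called changed sign in 47 of 431 refits and gained a call in 11. Each group held 4 libraries, and the depth behind the values is unknown.

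With a replicate block, 0 rows were called in F1 IUO against SAL, 3 in F2 IUO against SAL and 4 in F2 PNO against SAL. In each comparison at least 1 same-numbered pair had a correlation of deviations below 0. Differently numbered pairs were not set beside them, so this cannot decide whether the replicate numbers pair the samples. The block changed no other call beyond these counts. Without the Ttr-rich libraries, a choice made after seeing the data, 0 rows were called in F1 IUO against SAL, with fewer libraries and fold changes no smaller than with all of them. With all 24 libraries in one fit, 1 row was called in F2 IUO against SAL and 0 in F2 PNO against SAL. Leaving out 1 library gave 0 to 3 calls in F1 IUO and in F1 PNO against SAL, 3 to 4 in F2 IUO against SAL and 0 to 4 in F2 PNO against SAL. It gave 0 to 1 in F2 IUO against PNO, where Hba-a2 ENSRNOG00000029886 was called without the second PNO library. It also gave 0 to 1 in F2 SAL against F1 SAL, where LOC100134871 was called without the fourth F1 library.

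The sign changes concern values that were not called. Without the Ttr-rich libraries, Hba-a2 ENSRNOG00000029886 stood at -0.13 in F1 PNO against SAL, beside 1.13 with all libraries, and at -0.39 in F2 against F1 IUO. In F2 IUO against PNO, Hba-a2 ENSRNOG00000047321 and LOC100134871 both stood at -0.12. In F2 against F1 PNO, Hba-a2 ENSRNOG00000047321 stood at 0.75, Hbb at 1.06 and LOC100134871 at 1.12. With upper-quartile rescaling the last 2 stood at 0.025 and 0.00060. The cause was not tested.

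When 1 library was left out, the log2 fold changes spanned these ranges, with rows in the order Hba-a2 ENSRNOG00000029886, Hba-a2 ENSRNOG00000047321, Hbb and LOC100134871. In F1 IUO against PNO they were -0.50 to 1.27, -0.33 to 1.36, -0.35 to 1.48 and -0.38 to 1.24. In F2 SAL against F1 SAL they were -0.73 to 0.13, -0.63 to 0.42, -1.05 to 0.55 and -0.0016 to 1.08. In F2 PNO against F1 PNO they were -0.58 to 0.98, -0.95 to 0.57, -0.52 to 1.08 and -0.64 to 0.86. In F2 IUO against PNO the last 3 rows were at -0.067 to 0.83, -1.62 to 0.32 and -0.20 to 0.71. In F2 IUO against F1 IUO, the Hba-a2 rows and LOC100134871 were at -0.45 to 0.90, -1.06 to 0.21 and -0.75 to 0.45.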
